A study of Mus musculus with 2 samples.

Results

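The genes described here are 5 members of the CCN family, Cyr61 (Ccn1), Ctgf (Ccn2), Nov (Ccn3), Wisp1 (Ccn4) and Wisp2 (Ccn5). They were chosen by symbol from the 27998 genes of the deposited gene table. The rule used no levels, but the choice was made with earlier results of these data known. Wisp3 (Ccn6), the remaining CCN gene, had 5 and 3 UMIs (unique molecular identifiers, each standing for 1 captured transcript) in the fibroblasts of the 2 libraries and was not followed further. CCN proteins are secreted to the matrix, where they bind integrins, heparan sulfate proteoglycans and growth factors. They are built from an IGFBP-like domain, a von Willebrand C domain, a thrombospondin repeat and a C-terminal cysteine knot, and Wisp2 lacks the last of these. Cyr61 and Ctgf are textbook targets of the Hippo effectors YAP and TAZ, and Cyr61 is also an immediate early gene. Ctgf is a fibrosis gene of skin wounds, Nov is known to counteract several actions of Ctgf, and Wisp1 and Wisp2 were first described as genes induced by Wnt1.

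In the GRCm38 annotation Cyr61 lies on the minus strand at chr3:145646976-145649981 and encodes 379 codons. Ctgf lies on the plus strand at chr10:24595442-24598683 with 348 codons and overlaps 1 annotated gene, Gm15270. Nov and Wisp1 are both on the plus strand of chromosome 15, at chr15:54745702-54754039 with 354 codons and at chr15:66891320-66923201 with 367 codons. Wisp2, at chr2:163820861-163833146 on the plus strand, is the shortest with 251 codons, and 4 of its 5 exons are coding, where in the other members all 5 are. The longest identical run between any pair of member transcripts was 10 to 28 bases, the longest being that of Ctgf and Nov.

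The family relation can be seen in a stretch of 24 coding bases from the IGFBP-like domain, shown because each member holds it once. The codons for its 4 conserved cysteines are in capitals, and the sequences are from the GENCODE vM21 transcripts of GRCm38.
Cyr61, codons 49 to 56: ggcTGCggcTGCTGTaaggtcTGC
Ctgf, codons 52 to 59: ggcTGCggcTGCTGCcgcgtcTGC
Nov, codons 54 to 61: ggcTGCtccTGCTGTccggtgTGC
Wisp1, codons 72 to 79: ggcTGTgaaTGCTGTaagataTGT
Wisp2, codons 49 to 56: ggcTGTggcTGCTGTcgagtgTGT
Of these 24 bases, Ctgf shared 20 with Cyr61, Nov shared 19, and Wisp1 and Wisp2 shared 18 each.

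The RefSeq promoter table, with 300 bases for each of 32851 promoters, matched Cyr61 alone among the members. The 120 bases before its start, at chr3:145649986-145650105 on the minus strand of GRCm38.p6, are shown because Cyr61 is described below beside YAP targets and immediate early genes. Capitals mark, in this order, a TEAD core, a half-site of the cyclic AMP response element (CRE) and a pair of overlapping TATA matches.
Cyr61 promoter: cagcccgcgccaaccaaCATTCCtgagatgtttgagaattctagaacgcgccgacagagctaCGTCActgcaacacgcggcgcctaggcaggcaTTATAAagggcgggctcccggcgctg
The TEAD core GGAATG matched once in the 300 bases, on the opposite strand and 103 bases before the start, and 14.7% of all promoters hold it on either strand. The CRE half-site TGACG matched once, 58 bases before the start, and occurs in 20.8% of promoters. TATAA occurs in 24.9%, the CArG box was not matched here and occurs in 1.63%, and the GLI core ACCACCCA was not matched and occurs in 1.48%.

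The cells came from dermis of healed skin wounds of mice that were 4 to 5 weeks old. Both groups carried SM22rtTA and tetO-Cre and were fed doxycycline at 20 g/kg from day 1 after wounding to 3 days after complete re-epithelialization. In controls Cre switched on R26-Tomato alone, and in SM22-SmoM2 mice it switched on R26-SmoM2 with Tomato, SmoM2 being a constitutively active Smoothened that turns on Hedgehog (Hh) signalling. Each group was 1 10x Chromium library of Tomato+ cells, sorted by FACS from pooled wounds of several mice. The model is limited to cells in which the SM22α promoter (gene Tagln) had been active, so that the sort sets the shares of the lineages. With 1 library per group no difference could be tested, and all intervals below are 95% intervals that cover counting error only. They are exact, but for those of co-detection ratios, which take the product of the shares as fixed. Within fibroblasts the label held, since the Hh targets Gli1 and Ptch1 were at 6.02 and 12.2 CPM (counts per 1000000 UMIs of the class) in control cells and at 33.2 and 147 CPM in SM22-SmoM2 cells.

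The filters kept 2856 of the 2878 cells deposited for control and 1792 of the 1802 for SM22-SmoM2, with 30103855 and 17814222 UMIs and a median of 8608 and 8838 per cell. Cell classes were rebuilt by clustering without the member genes and were named from marker lists. There were 1090 control and 1098 SM22-SmoM2 fibroblast-like cells (38.2% and 61.3% of cells), 610 and 226 endothelial-like, 678 and 294 Schwann-like, 272 and 94 muscle-like and 82 and 33 immune-like cells. Another 109 and 46 cells stood in clusters with leading markers of another lineage and entered no lineage. The muscle-like cells were 1 cluster, led by Rgs5, Cox4i2 and Ndufa4l2. Their marker list held Rgs5, Notch3, Cspg4 and Kcnj8 beside Myh11 and Des. The 7 fibroblast markers summed to 53993 and 33587 CPM in fibroblasts. They also reached 5919 and 5981 CPM in Schwann-like cells, 3989 and 4332 CPM in muscle-like cells and 769.7 and 749 CPM in endothelial-like cells, with none of the 7 at 0. Both libraries held male and female cells, 1454 and 729 in control and 1134 and 244 in SM22-SmoM2. Male cells had a UMI of a Y gene (Ddx3y, Eif2s3y, Kdm5d or Uty) and none of Xist. Female cells had Xist and no Y gene, and cells with both or neither were given no sex.

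Across lineages the 5 genes fell into a group read in many cell types and a group read mainly in fibroblasts. Fibroblasts held 46.9% of all control UMIs and 70.0% of all SM22-SmoM2 UMIs. They held 94.8% and 90.9% of the Nov UMIs, 88.9% and 95.6% of the Wisp1 UMIs, and 93.8% and 98.7% of the Wisp2 UMIs. Of Cyr61 they held 41.9% and 65.9%, and of Ctgf 35.0% and 53.7%, in each library less than their part of all UMIs. Nov, Wisp1 and Wisp2 were thus concentrated in fibroblasts in both libraries, which also follow the sort.

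Cyr61 was highest in Schwann-like cells, at 1046 CPM (1018 to 1076) in control and 974 CPM (931 to 1018) in SM22-SmoM2. Muscle-like cells came next with 729.9 (692 to 769.6) and 789 CPM (716 to 868), then fibroblasts with 556 (544 to 569) and 580.1 CPM (567 to 594). Endothelial-like cells had 496 (479 to 513) and 511 CPM (478 to 545), and immune-like cells were lowest with 157 (129 to 189) and 84.8 CPM (57.6 to 120.4). No neighbours in this order had overlapping intervals, so the order from Schwann-like cells down to immune-like cells was the same in both libraries. With barcodes marked as doublets by Scrublet removed and the classes rebuilt, the SM22-SmoM2 values came closer. Fibroblasts and endothelial-like cells were then nearly level at 563 and 560.3 CPM, and Schwann-like and muscle-like cells were at 980.4 and 920.1 CPM.

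Ctgf followed another order. It was highest in endothelial-like cells in control, at 84.4 CPM (77.6 to 91.7), above muscle-like cells with 61.4 CPM (50.7 to 73.8) and fibroblasts with 32.9 CPM (465 UMIs). In SM22-SmoM2 muscle-like cells had 140.3 CPM (110.3 to 176) and endothelial-like cells 117 CPM (101 to 134), 2 values whose intervals overlapped, and fibroblasts had 36.7 CPM (33.4 to 40.2). Schwann-like cells, the highest in Cyr61, had Ctgf at 9.95 CPM (7.31 to 13.2) and 22.8 CPM (16.7 to 30.4). Immune-like cells held 3 and 1 Ctgf UMIs in all.

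Nov in control fibroblasts stood at 247 CPM (239 to 256), and the next lineage, endothelial-like cells, was at 17.2 CPM (14.2 to 20.7). In SM22-SmoM2 the same lineages were at 24.8 CPM (22.1 to 27.7) and 11.8 CPM (7.29 to 18.0), so the gap between them was narrower. Schwann-like, muscle-like and immune-like cells had 1.98 to 5.72 CPM, from 27 UMIs or fewer. Endothelial Nov in control was 6.97% of its fibroblast level, and each of the 7 fibroblast markers was there at 1.05% to 2.29% of its own.

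Wisp1 was at 143 CPM (137 to 149.5) and 141 CPM (134 to 147) in fibroblasts and at 37.9 CPM (32.6 to 43.9) and 23.8 CPM (17.5 to 31.5) in Schwann-like cells. The Wisp1 level of control Schwann-like cells was 26.5% of that of fibroblasts, and the 7 fibroblast markers ranged from 1.09% to 17.4% there. In SM22-SmoM2 it was 16.9%, inside the markers' range of 1.45% to 23.2%. Whether free RNA had a part in it was not tested. Muscle-like cells had 26 and 8 Wisp1 UMIs, and endothelial-like cells 4.20 and 4.49 CPM.

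Wisp2 stood at 87.6 CPM (82.8 to 92.7) in control fibroblasts and 35.9 CPM (32.7 to 39.4) in SM22-SmoM2 fibroblasts. In control, muscle-like cells had 18.2 CPM (12.6 to 25.4) and immune-like cells 11.4 CPM (4.93 to 22.5), with overlapping intervals. In SM22-SmoM2 muscle-like cells had 3.74 CPM (0.453 to 13.5) from 2 UMIs. That interval overlapped those of the other lineages outside fibroblasts. Endothelial-like cells held 9 and 1 Wisp2 UMIs, and immune-like cells 8 and 0 UMIs, a count of 0 that allows up to 10.1 CPM.

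**Figure D1:**
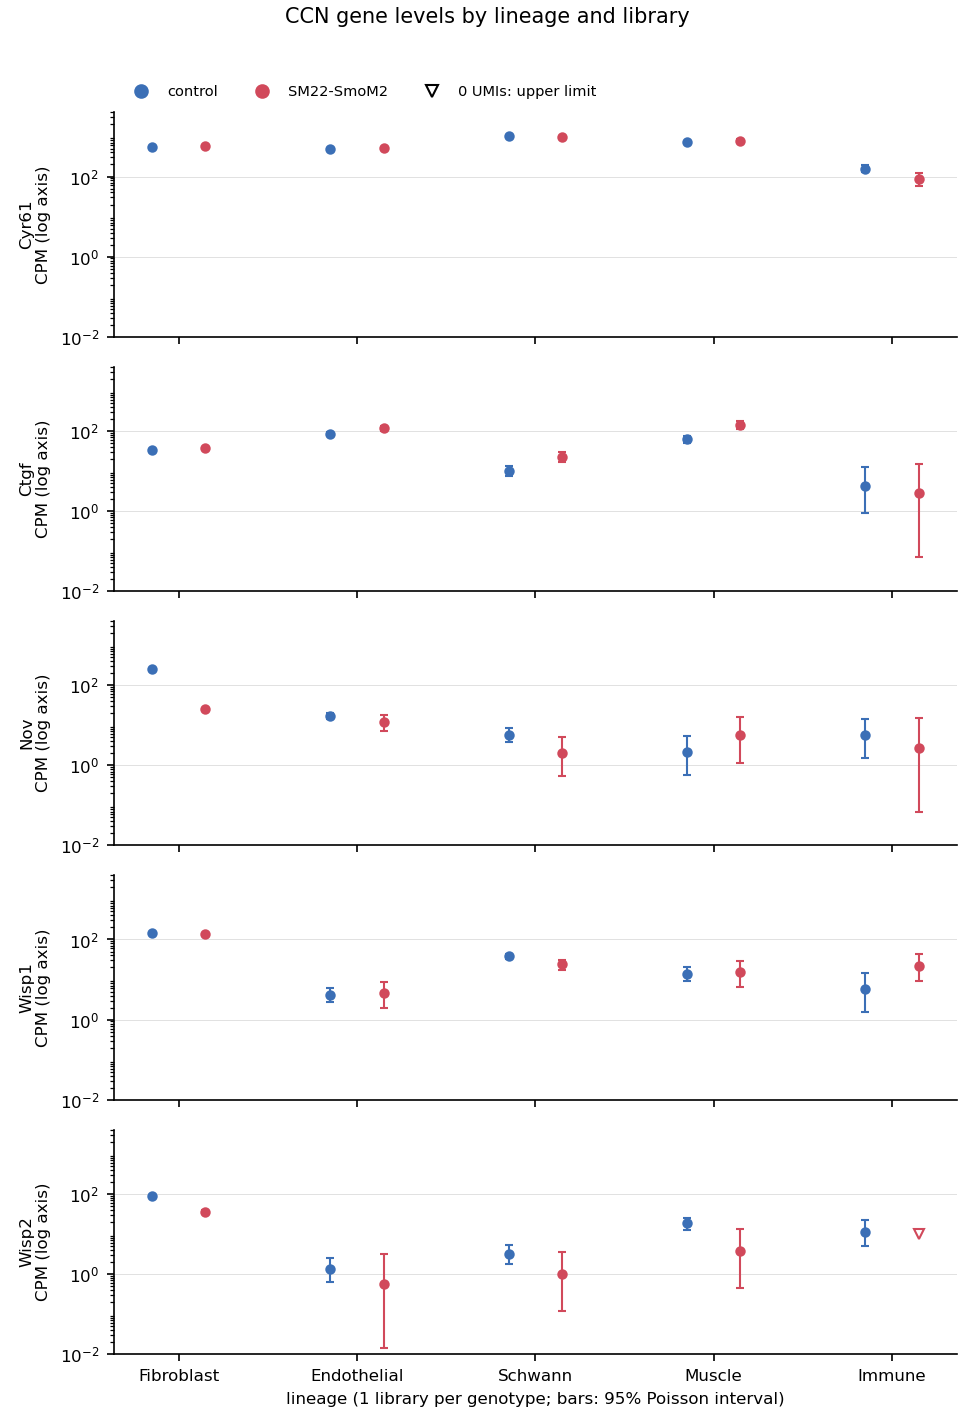
Level of each CCN gene (CPM, log axis) in 5 lineages of the control and SM22-SmoM2 libraries, with 95% Poisson intervals and an open triangle at the upper limit where no UMI was counted. Nov, Wisp1 and Wisp2 were highest in fibroblasts in both libraries, and Nov in fibroblasts was at 247 CPM in control against 24.8 CPM in SM22-SmoM2.

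The libraries were then compared within each lineage, and Hh targets had been checked in fibroblasts alone. In fibroblasts Nov and Wisp2 were lower in SM22-SmoM2, and Cyr61, Ctgf and Wisp1 were within 1.5-fold of control. Nov was 9.99-fold lower, with a log2 ratio of -3.32 (-3.49 to -3.15) from 3491 and 309 UMIs. Wisp2 was 2.44-fold lower, with a log2 ratio of -1.29 (-1.45 to -1.13) from 1237 and 448 UMIs. The log2 ratio of Cyr61 was 0.06 (0.01 to 0.11), that of Ctgf 0.16 (-0.03 to 0.35) and that of Wisp1 -0.03 (-0.12 to 0.07). With each cell thinned to 1500 UMIs the Ctgf ratio was 0.95, from 36 and 70 UMIs, and past 1.5-fold. That value is from 1 random draw and has no interval, and the mean of single-cell CPM gave 0.38, within 1.5-fold. Thus 2 of the 5 members were at least 1.5-fold lower, where 15.1% of the 14200 fibroblast genes with at least 10 UMIs were. None was at least 1.5-fold higher, where 15.6% of these genes were. Only 0.401% of the genes had a lower ratio than Nov, and 4.77% a lower ratio than Wisp2, about a median over all genes of -0.05.

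The sexes were unequally mixed in the libraries, with 645 male and 220 female control fibroblasts against 815 and 48 in SM22-SmoM2. Fibroblasts given no sex are left out here but enter the ratios over all fibroblasts. Nov in male cells was at 295 CPM in control against 24.8 CPM in SM22-SmoM2, and in female cells at 87.8 CPM and, from 2 UMIs, 4.32 CPM. Wisp2 was at 85.5 and 31.6 CPM in male cells and at 119.9 and, from 1 UMI, 2.16 CPM in female cells. Both genes were lower in SM22-SmoM2 in either sex. Wisp1 was at 132 and 143 CPM in male cells but at 181 and 66.9 CPM in female cells, the latter from 31 UMIs. Ctgf in female cells was at 30.2 CPM and, from 2 UMIs, 4.32 CPM, and in male cells at 34.3 and 33.3 CPM.

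Outside the fibroblasts Ctgf was higher in SM22-SmoM2 in several lineages, but not in all of their clusters. In muscle-like cells Ctgf was 2.28-fold higher in SM22-SmoM2, with a log2 ratio of 1.19 (0.75 to 1.62). With barcodes marked as doublets by Scrublet removed and the classes rebuilt, this ratio was 0.67. In endothelial-like cells the log2 ratio of Ctgf was 0.47 (0.23 to 0.70). It was 0.58 (0.22 to 0.93) in cluster 7 (Csf3, Cxcl10 and Tiparp), and in clusters 8 and 11 it was 0.03 (-0.33 to 0.38) and 0.12 (-0.75 to 0.89). In Schwann-like cells it was 1.20 (0.58 to 1.81), but cluster 15, led by the cycling genes Pbk and Ube2c, carried it. There Ctgf was at 9.34 CPM in control against 53.4 CPM in SM22-SmoM2, from 6 and 30 UMIs in 60 and 49 cells. Its log2 ratio was 2.52 (1.23 to 4.07). None of the top 10 genes of cluster 15 was a lineage marker. Without that cluster the ratio over Schwann-like cells was 0.13.

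In endothelial-like cells 13.0% of genes were at least 1.5-fold lower and 6.71% at least 1.5-fold higher. No member was past this fold but Wisp2, at -1.27 (-6.72 to 1.58) from 9 and 1 UMIs, which met the minimum through control and whose interval held 0. In Schwann-like cells the ratios of Nov, Wisp1 and Wisp2 were lower past this fold, beside 12.8% of genes, and Ctgf was higher, beside 8.46%. Of these, Wisp1 had a log2 ratio of -0.67 (-1.16 to -0.21), which without cluster 15 was -0.43 and within 1.5-fold. Nov rested on 27 and 4 UMIs and Wisp2 on 15 and 2, with a Wisp2 interval (-4.85 to 0.42) that held 0, and both met the minimum of 10 UMIs through control, so nothing is read from them. In muscle-like cells Nov had too few UMIs, and of the other 4 members Wisp2 stood at -2.28 (-5.38 to -0.32) from 34 and 2 UMIs, having met the minimum through control, beside 18.8% of genes, and Ctgf higher, beside 10.4%. Cyr61 kept within 1.5-fold of control in fibroblasts, endothelial-like, Schwann-like and muscle-like cells. In immune-like cells it was lower, at a log2 ratio of -0.89 (-1.51 to -0.30) from 110 and 31 UMIs. Within their clusters it was at -0.35 (-1.27 to 0.55) in 16 and at 0.05 (-0.96 to 0.93) in 19. Cluster 19, with Cyr61 at 248 CPM in control against 75.7 CPM in 16, had 39 control and 4 SM22-SmoM2 cells. The immune-like ratio thus mixes clusters in unequal parts.

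**Figure D2:**
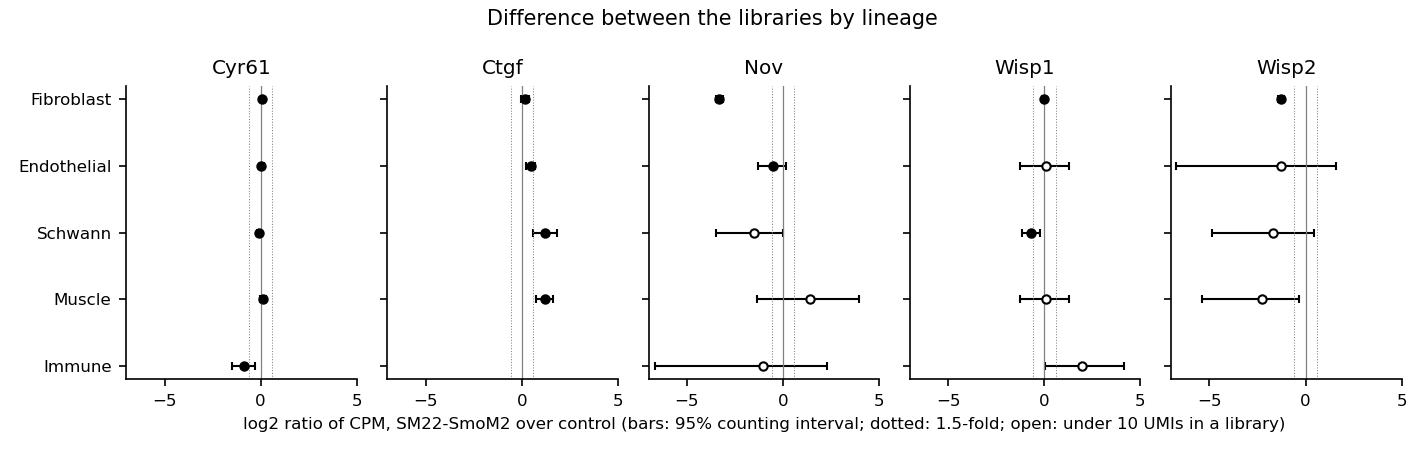
Log2 ratio of CPM in SM22-SmoM2 over control for each CCN gene by lineage, with 95% counting intervals, dotted lines at 1.5-fold and open points for under 10 UMIs in a library. Nov stood at -3.32 and Wisp2 at -1.29 in fibroblasts, and Ctgf lay above 0 in endothelial-like, Schwann-like and muscle-like cells, in Schwann-like cells through cluster 15.

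Fibroblasts were then divided into 13 sub-clusters. The members and a chosen set of Hh, dermal papilla and Wnt genes, 27 genes in all with Wisp3, were left out in forming them. Sub-clusters 3 (leading genes Sfrp5, Cldn1 and Ccdc3), 4 (Areg, Srxn1 and Mt2), 6 (Ifitm1, Tnmd and Rasgrp2) and 7 (Egfl6, Fam212a and Sox11) were called Hh-active-like from 5 Hh markers, among them Gli1, Gli2, Ptch1 and Hhip. They held 731 SM22-SmoM2 and 54 control cells. Sub-cluster 12, with Ibsp and Cd24a among its leading genes and 12 of 12 Hh-active II markers raised, held 46 SM22-SmoM2 cells and no control cell. These 12 markers were not left out of the clustering, so they could take part in forming it. Sub-cluster 8 (Gm26870, Ube2c and Cdc20), with 54 control and 74 SM22-SmoM2 cells, was called cycling-like because cycling markers were among its top 10 genes. All 6 cycling markers were raised in it, but so they were in sub-cluster 9, and 5 were in sub-cluster 7, 4 in 6 and 3 in 5. The remaining 7 sub-clusters, called other fibroblasts, held 982 control and 247 SM22-SmoM2 cells.

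Nov was carried by a few sub-clusters, most of which had hardly any cell of the SM22-SmoM2 library. In control it was at 654 CPM (624 to 686) in sub-cluster 5 (Ccl21a, Wnt2 and Nov itself), at 480.4 CPM (448 to 515) in sub-cluster 9 (Tslp, Cxcl2 and Ptx3) and at 404 CPM (362 to 450.3) in sub-cluster 10 (Agtr2, Angptl1 and Fbln7). These held 49.5%, 23.3% and 9.48% of the control fibroblasts' Nov UMIs, and 171, 112 and 80 control cells, but only 5, 0 and 0 SM22-SmoM2 cells. The 5 SM22-SmoM2 cells of sub-cluster 5 had Nov at 627 CPM (423 to 895), an interval that holds the control value. Sub-clusters 5, 9 and 10 were mostly male, with 127, 97 and 59 male and 4, 2 and 0 female control cells among those that could be sexed.

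In sub-cluster 2 (Mmp3, Ctla2a and Mmp13), which both libraries filled with 224 and 119 cells, Nov was at 123 CPM (109.9 to 136) in control and 159 CPM (139 to 181) in SM22-SmoM2. This sub-cluster held 9.65% of the control and 74.1% of the SM22-SmoM2 Nov UMIs of fibroblasts. In the cycling sub-cluster 8 Nov was at 258 CPM (228 to 291) in control and 5.05 CPM (1.64 to 11.8) in SM22-SmoM2, a log2 ratio of -5.67 (-7.31 to -4.43). In sub-cluster 1 (Crabp1, Mmp11 and Prss35), with 292 and 120 cells, Nov was at 2.47 and 0.678 CPM. In control, sub-clusters 3, 11 and 13 had at most 11.9 CPM. In SM22-SmoM2 the Hh-active-like cells had Nov at 5.13 CPM (3.69 to 6.93) and the other fibroblasts at 87.1 CPM (76.9 to 98.4).

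With the 3 sub-clusters that had at least 50 cells of each library pooled (1, 2 and 8), Nov was at a log2 ratio of -0.45 (-0.68 to -0.23), against -3.32 over all fibroblasts. Among other fibroblasts as a class it was -1.56 (-1.75 to -1.38). These sums still mix sub-clusters in unequal parts in the libraries, and the mean of the 3 ratios taken within sub-clusters was -2.39, most of it from sub-cluster 8. The direction of the Nov difference was not the same in sub-clusters 2 and 8, so its size in sub-clusters that both libraries filled depends on how they are weighted. A sub-cluster found in 1 library may be that library and not a cell type, and the libraries and genotypes cannot be told apart.

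Wisp2 was highest in sub-cluster 13 (C4b, Saa3 and Apoe), at 372 CPM (309.6 to 443), with 42 cells that were all from control. Sub-cluster 2 followed with 176 CPM (161 to 192) in control and 231 CPM (207 to 257) in SM22-SmoM2, and it held 39.1% and 74.6% of the fibroblasts' Wisp2 UMIs. Sub-clusters 5 and 9 were at 109.8 and 75.1 CPM in control. In sub-cluster 1 Wisp2 was at 35.7 CPM (29.8 to 42.4) in control and 3.39 CPM (1.10 to 7.91) in SM22-SmoM2, a log2 ratio of -3.40 (-5.04 to -2.14). The cycling sub-cluster had 64.4 and 52.6 CPM. The Hh-active-like sub-clusters of SM22-SmoM2 had 1.27 to 9.37 CPM. Sub-cluster 11 of control and sub-cluster 12 of SM22-SmoM2 had no Wisp2 UMI at all, which allows up to 5.42 CPM and 11.8 CPM. Pooled over sub-clusters 1, 2 and 8 the log2 ratio of Wisp2 was 0.13 (-0.06 to 0.31), and in the class of other fibroblasts it was 0.35 (0.17 to 0.52), against -1.29 over all fibroblasts. The mean of the ratios within sub-clusters 1, 2 and 8 was -1.10, set mainly by the 5 UMIs of sub-cluster 1, so the direction within sub-clusters also depends on the weighting.

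Wisp1 was spread more evenly. Its level ran from 25.0 CPM (14.6 to 40.0) in sub-cluster 11 (Cst6, Trf and Gcg) to 244 CPM (228 to 261) in sub-cluster 1 of control and 221 CPM (198 to 246) in the same sub-cluster of SM22-SmoM2. Sub-clusters 5 and 10, high in Nov, had Wisp1 at 64.3 and 73.3 CPM, while sub-cluster 9 had 114 CPM. Within sub-clusters 1, 2, 3 and 8 every interval of its ratio between the libraries held 0. In the class of other fibroblasts, which mixes sub-clusters in unequal parts, its log2 ratio was 0.45 (0.31 to 0.58). Among the Hh-active-like sub-clusters of SM22-SmoM2 Wisp1 was at 182 CPM in 4 and at 74.6 CPM in 6, and it was at 60.7 CPM in sub-cluster 12.

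Cyr61 differed up to several-fold between sub-clusters. It was at 1695 CPM (1631 to 1762) in the Hh-active-like sub-cluster 7, at 1233 CPM (1113 to 1362) in sub-cluster 12, at 1101 CPM (1030 to 1175) in sub-cluster 10 and at 970.3 CPM (924 to 1018) in sub-cluster 9. Sub-cluster 7 alone held 36.0% of the SM22-SmoM2 fibroblasts' Cyr61 UMIs with 12.3% of all their UMIs. The lowest levels were 291 CPM in sub-cluster 11 and 294 CPM in the Hh-active-like sub-cluster 4. In sub-clusters 1, 2, 3 and 8 the log2 ratios lay between -0.07 and 0.09, each with an interval that held 0. In the class of other fibroblasts Cyr61 was 1.54-fold lower in SM22-SmoM2, with a log2 ratio of -0.62 (-0.72 to -0.53). That class mixes sub-clusters in unequal parts in the libraries. Where control had few cells the levels differed, at 83.0 CPM (33.4 to 171) in 7 control cells of sub-cluster 4 and at 892 CPM (713 to 1101) in 10 control cells of sub-cluster 6, against 294 and 506 CPM in SM22-SmoM2. The close values of the pooled fibroblasts were therefore sums of different sub-clusters, since control cells high in Cyr61 stood in 9 and 10 and SM22-SmoM2 cells high in it stood in 7 and 12.

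By summed UMIs Ctgf was higher in SM22-SmoM2 in 3 of the 4 sub-clusters that could be compared. It was at 12.1 and 35.3 CPM in sub-cluster 1, a log2 ratio of 1.54 (0.94 to 2.16), and at 44.0 and 90.0 CPM in sub-cluster 2, a ratio of 1.03 (0.66 to 1.40). In sub-cluster 3 it was at 14.6 CPM from 5 UMIs and at 52.9 CPM, a ratio of 1.86 (0.60 to 3.51). The cycling sub-cluster 8 went the other way, with 43.9 and 9.10 CPM and a ratio of -2.27 (-3.49 to -1.22). In the class of other fibroblasts, which mixes sub-clusters in unequal parts, Ctgf was at a ratio of 0.88 (0.62 to 1.14). With cells thinned to equal depth, Ctgf was detected in 6 of 292 control and 6 of 117 SM22-SmoM2 cells of sub-cluster 1. In sub-cluster 2 these were 17 of 224 and 17 of 116. They were 0 of 35 and 17 of 208 in sub-cluster 3, and 5 of 54 and 1 of 74 in sub-cluster 8. In all 4 the intervals of these shares overlapped between the libraries, so a difference across most cells was not shown. In control the highest levels were 59.2 CPM in sub-cluster 9 and 46.6 CPM in sub-cluster 5. In SM22-SmoM2 the Hh-active-like sub-clusters divided, with 59.2 CPM in 7 and 52.9 CPM in 3 but 10.3 CPM in 4 and 12.1 CPM in 6. Sub-cluster 12, high in Cyr61, had no Ctgf UMI in its 46 cells, which allows up to 11.8 CPM.

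**Figure D3:**
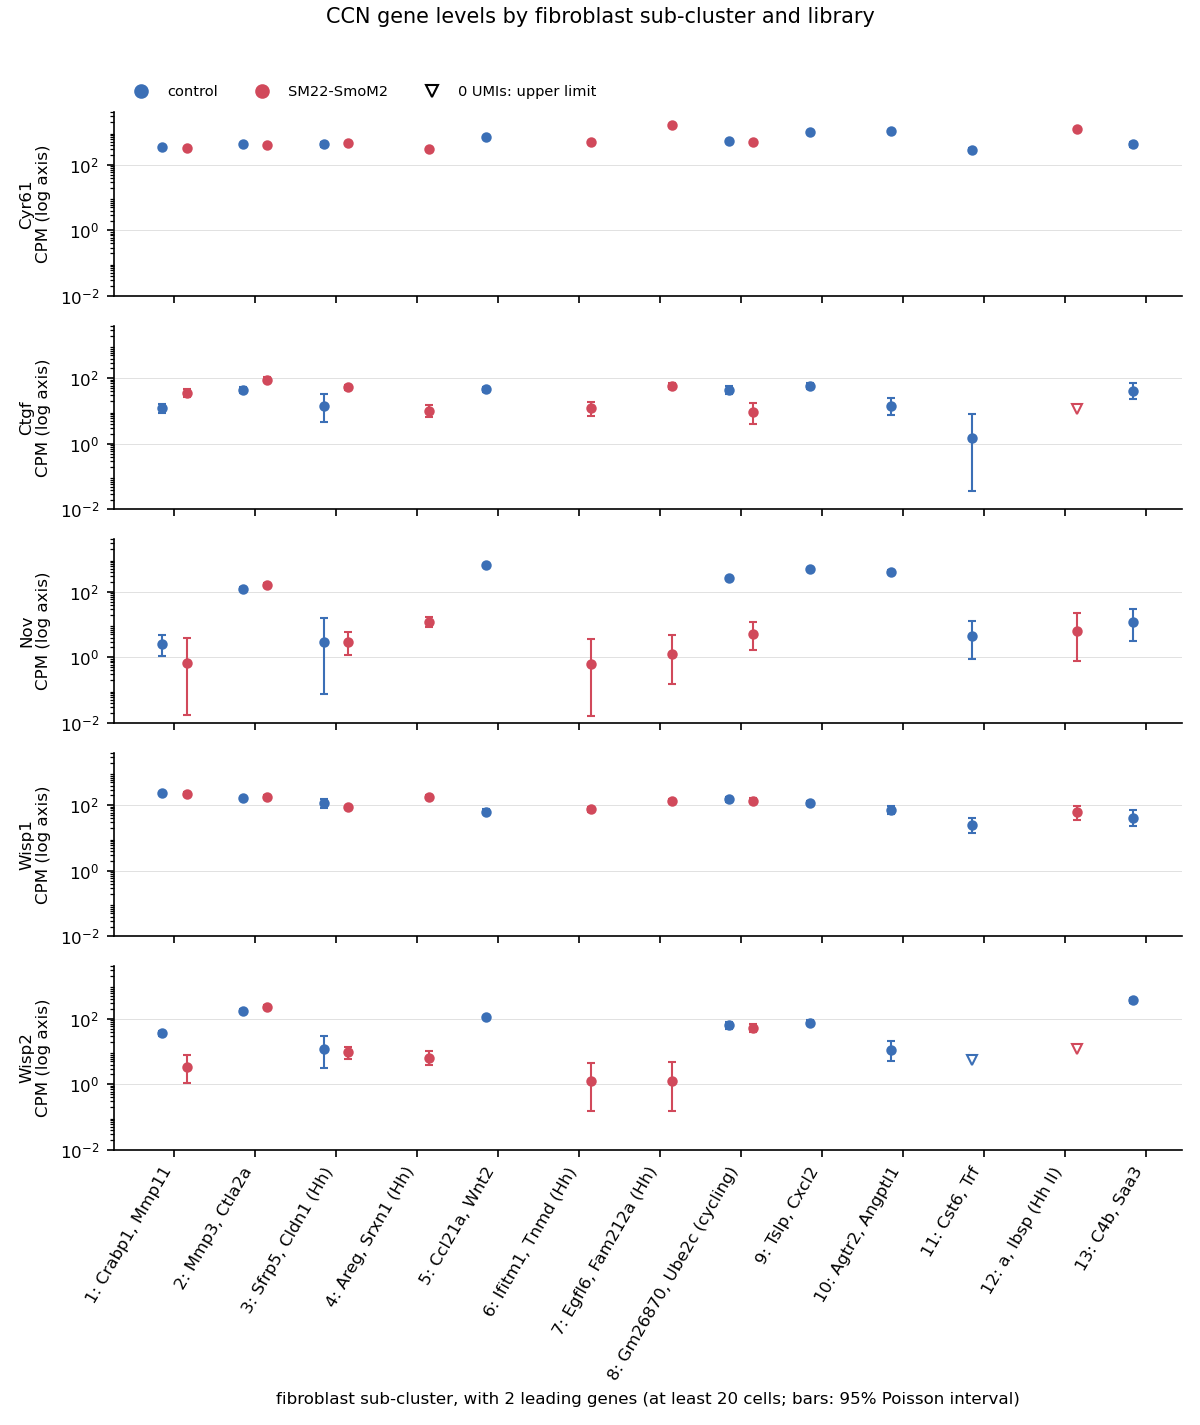
Level of each CCN gene (CPM, log axis) in 13 fibroblast sub-clusters of control and SM22-SmoM2 with at least 20 cells, with 95% Poisson intervals and open triangles at the upper limit for 0 UMIs. Nov in control ranged from 2.47 CPM in sub-cluster 1 to 654 CPM in sub-cluster 5, while Cyr61 lay between 291 and 1695 CPM in every sub-cluster shown.

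Inside the SM22-SmoM2 library, where genotype and library were the same, the Hh-active-like cells were set against the other fibroblasts. Cyr61 was at 644 CPM (626 to 661) and 366 CPM (344 to 388), a log2 ratio of 0.82 (0.72 to 0.91). It was the 1 member at least 1.5-fold higher in Hh-active-like cells, beside 22.5% of the 12694 genes with enough UMIs. Not every Hh-active-like sub-cluster was higher. Cyr61 was at 1695 CPM in 7, at 506 and 449 CPM in 6 and 3, and at 294 CPM in 4. Sub-clusters 1 and 2, which held most of the other fibroblasts of this library, had 330.2 and 401 CPM. The other 4 members were at least 1.5-fold lower, beside 15.6% of genes. Nov had a log2 ratio of -4.09 (-4.59 to -3.61), and Wisp2, at 5.37 and 118 CPM, had -4.46 (-4.94 to -4.00). Fewer than 1 in 100 genes had lower ratios, 0.142% for Nov and 0.0788% for Wisp2. Of the other fibroblasts, the 119 cells of sub-cluster 2 had Nov and Wisp2 at 159 and 231 CPM. The 120 cells of sub-cluster 1 had them at 0.678 and 3.39 CPM, no higher than the Hh-active-like cells. Ctgf, at 32.6 and 61.0 CPM, had -0.90 (-1.18 to -0.62), and Wisp1, at 124 and 196 CPM, had -0.66 (-0.81 to -0.51). Neither held for every sub-cluster. Ctgf was at 59.2 and 52.9 CPM in Hh-active-like sub-clusters 7 and 3, and at 10.3 and 12.1 CPM in 4 and 6. Sub-clusters 1 and 2 had 35.3 and 90.0 CPM of Ctgf. Wisp1 was at 182 CPM in Hh-active-like sub-cluster 4, beside 221 and 177 CPM in sub-clusters 1 and 2. In sub-clusters 3, 6 and 7 it was at 85.9, 74.6 and 137 CPM. Against the Hh-active-like cells as a class, the Hh-active II-like cells of sub-cluster 12 had Cyr61 at a log2 ratio of 0.94 (0.78 to 1.09). Their 1233 CPM was above sub-clusters 3, 4 and 6 but below the 1695 CPM of sub-cluster 7. Wisp1 was lower in them than in that class, by -1.03 (-1.77 to -0.38). The 54 control cells in Hh-active-like sub-clusters had Nov at 5.59 CPM from 3 UMIs and Wisp2 at 11.2 CPM from 6 UMIs, low as in their SM22-SmoM2 neighbours.

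To see whether single fibroblasts held 1 CCN gene to the exclusion of others, each cell was thinned to 3000 UMIs, which left out 19 SM22-SmoM2 cells and no control cell. Cyr61 was then detected in 61.0% (58.0 to 63.9) of control and 56.9% (53.9 to 59.9) of SM22-SmoM2 fibroblasts, and Wisp1 in 30.6% and 32.9%. Nov was detected in 26.1% (23.6 to 28.9) and 3.34% (2.35 to 4.59), Wisp2 in 14.4% and 4.26%, and Ctgf in 5.87% and 6.02%. At full depth, with medians of 12473 and 10948 UMIs per fibroblast, these shares came to 82.6% and 78.1% for Cyr61, 66.8% and 62.1% for Wisp1, 38.1% and 7.01% for Nov, 26.9% and 8.01% for Wisp2 and 16.9% and 13.7% for Ctgf.

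Shares of Nov, Wisp1 and Wisp2 in other lineages were set beside these, and whether free RNA gave them was not tested. In immune-like cells, with median depths of 7468 and 9324 UMIs, fibroblast markers reached 2.59% to 7.46% of their fibroblast level in control but 16.2% to 35.1% in SM22-SmoM2. After thinning Nov was found in 3 of 82 control immune-like cells (3.66%) and 0 of 33 SM22-SmoM2 cells, which allows up to 10.6%. Wisp2 was found in 2.44% and in none, and Wisp1 in 2.44% and 6.06%. In SM22-SmoM2 Schwann-like cells, at a median of 5546 UMIs, Nov and Wisp2 were found in 0 of 269 cells, which allows up to 1.36%. In SM22-SmoM2 endothelial-like cells, at 6260 UMIs, Wisp2 was found in 0 of 216, which allows up to 1.69%. The Wisp2 share of SM22-SmoM2 fibroblasts, 4.26%, was above both of these limits. It was not above the limits of SM22-SmoM2 muscle-like cells (0 of 75, up to 4.80%) and immune-like cells (0 of 33, up to 10.6%). The Nov share, 3.34%, was above the limit of Schwann-like cells but not above the 4.63% of endothelial-like cells. Nor was it above the limits of muscle-like cells (0 of 75, up to 4.80%) and immune-like cells. In this library endothelial-like Nov stood at 47.6% of its fibroblast level, beside 1.69% to 3.45% for the 7 fibroblast markers. Endothelial-like Nov itself was at 17.2 CPM in control and, from 21 UMIs, at 11.8 CPM in SM22-SmoM2. Fibroblast Nov was at 247 and 24.8 CPM. Where endothelial-like Nov came from was not tested. Detection was denser in sub-cluster 2 of SM22-SmoM2, with Nov in 17.2% and Wisp2 in 30.2% of 116 cells. In control, Nov was in 69.0% of cells of sub-cluster 5, in 65.2% of 9 and in 46.2% of 10.

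Transcripts were unevenly shared among cells. The 109 control fibroblasts with the highest level of a gene, 1 in 10, held 31.4% of the Wisp1 UMIs, 35.2% of the Cyr61 UMIs and 55.3% of the Nov UMIs, against 73.8% of the Wisp2 and 82.4% of the Ctgf UMIs. In SM22-SmoM2 the top 110 cells held all Nov and Wisp2 UMIs, as only 77 and 88 of the 1098 cells had any. The highest single cell carried 68 Cyr61, 56 Nov and 36 Wisp2 UMIs in control, and 73, 29 and 54 in SM22-SmoM2. Nov and Wisp2 of the SM22-SmoM2 library were thus borne by few cells.

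Most fibroblasts showed 1 member or none at 3000 UMIs. No member was detected in 18.1% of control and 26.5% of SM22-SmoM2 fibroblasts, 1 in 39.4% and 48.5%, 2 in 30.6% and 20.8%, and 3 or more in 11.8% (9.98 to 13.9) and 4.26% (3.14 to 5.65). A single control cell had all 5. Such shares depend on depth, so pairs were compared with the number of cells that would hold both if the genes were detected independently of each other.

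By this measure, at 1 UMI and 3000 UMIs per cell, 1 pair had an interval below 1, and the values depended on the threshold. Nov and Wisp1 were both detected in 48 control fibroblasts where the product of their shares gives 87.3, an observed to product ratio of 0.55 (0.41 to 0.72). When the products were taken within sub-clusters the ratio was 0.82. In sub-clusters 2, 5, 9 and 10 it was 0.82, 0.75, 0.95 and 1.08, each with an interval that held 1. In sub-cluster 8 it was 0.38 (0.05 to 1.29), from 2 cells with both genes. Over all control fibroblasts the ratio was 0.89 without thinning and 0.29 with 2 UMIs required. In SM22-SmoM2 it was 1.10 (0.59 to 1.87). Sub-clusters high in Nov were low or middling in Wisp1, but the part of sub-cluster make-up in the control value was not tested.

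Other pairs were found together more often than the product. Nov and Wisp2 were both in 59 control cells, a ratio of 1.44 (1.10 to 1.84), and in 16 SM22-SmoM2 cells where the product gives 1.53, a ratio of 10.43 (5.98 to 16.85). Within sub-clusters these were 1.18 and 2.15. Of the 16 cells 14 stood in sub-cluster 2, where the ratio was 2.32 (1.30 to 3.73), beside 2.20 (1.27 to 3.49) in the same sub-cluster of control. Per cell, the correlation of Nov and Wisp2 levels over 1098 SM22-SmoM2 fibroblasts was 0.47 (Pearson) and 0.45 (Spearman), and 0.32 after thinning. These points share 1 library and differ in depth, and over the 1090 control cells the Pearson value was 0.15.

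Ctgf and Nov were both in 36 control cells, a ratio of 2.15 (1.51 to 2.96), and in 7 SM22-SmoM2 cells, a ratio of 3.23 (1.30 to 6.63). Within sub-clusters these were 1.37 and 1.98, and in sub-clusters 5 and 9 of control they were 1.00 and 0.88. Cyr61 and Nov had 1.27 (1.12 to 1.42) in control and 1.05 within sub-clusters, and Cyr61 and Ctgf had 1.41 (1.06 to 1.83) in SM22-SmoM2 and 1.28 within sub-clusters. The remaining pairs had intervals that held 1 in both libraries, among them Cyr61 and Wisp1 with 0.92 and 1.01. With 2 UMIs required, Wisp1 and Wisp2 stood at 0.45 and Ctgf and Wisp1 at 0.00 in control, and Cyr61 and Nov at 0.24 in SM22-SmoM2. At this depth the interval of a pair with few cells is wide, so that exclusion of the rare pairs was not detectable.

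**Figure D4:**
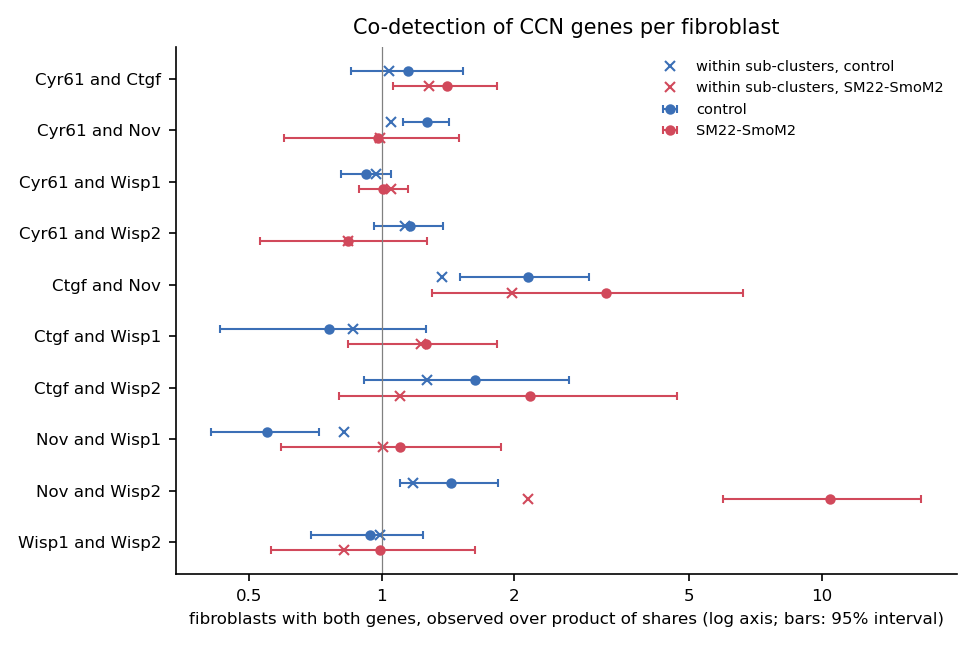
Number of fibroblasts in which both genes of a pair were detected at 3000 UMIs over the product of the shares (log axis), with 95% intervals; crosses take the products within sub-clusters. Nov and Wisp1 lay at 0.55 in control, and Nov and Wisp2 at 10.43 in SM22-SmoM2 with the cross at 2.15.

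The genes that act with or through CCN proteins were read in fibroblasts from fixed lists, with counts past 1.5-fold beside the 15.6% higher and 15.1% lower of all genes and the median of -0.05. Of 19 tested genes of a YAP/TEAD target signature, with Cyr61 and Ctgf left out, 1 was higher and 2 were lower, with a median log2 ratio of -0.14. Igfbp3, an IGF-binding protein, was higher at 1.13 (79.8 and 175 CPM), the receptor kinase Axl lower at -0.81 (216 and 123 CPM), and Ankrd1 lower at -1.20 from 70 and 27 UMIs. The matrix gene Ccdc80 and the tissue factor gene F3, the other abundant ones, were within 1.5-fold at 0.34 and -0.19. Of 16 Hippo pathway genes 1 was higher, the transcription factor Tead2 at 1.07 (28.9 and 60.7 CPM), and none was lower, with a median of -0.03. Its cofactor Wwtr1 (TAZ) stood at -0.10, and Vgll3, Vgll4 and Amotl1 at -0.28, 0.58 and 0.26. Most of both lists was within 1.5-fold, as Cyr61 and Ctgf were.

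Of 15 immediate early genes, which answer within minutes to stimuli that include tissue dissociation, 6 were higher and 1 was lower, with a median of 0.39. The AP-1 genes Junb (954 and 1847 CPM) and Fosb (71.1 and 179 CPM) were higher at 0.95 and 1.33, and Ier2 at 1.12, while Fos and Ier3 stood at 0.26 and 0.21. Over 17 combinations of sub-cluster and library the correlation of Cyr61 with the summed 15 genes, on a log2 scale, was 0.53 (Pearson) and 0.39 (Spearman). It was 0.51 over the 9 of control and 0.59 over the 8 of SM22-SmoM2. Over both libraries without the 2 farthest it was 0.29, so the value of 0.53 rested in large part on those 2. Sub-clusters 7 and 12 were high in both, with 10553 and 15321 CPM of these genes, but sub-cluster 4 had 10211 CPM beside the low Cyr61 of 294 CPM. Sub-cluster 10 had 4540 CPM beside a Cyr61 of 1101 CPM. The part of dissociation in Cyr61 was not tested.

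**Figure D5:**
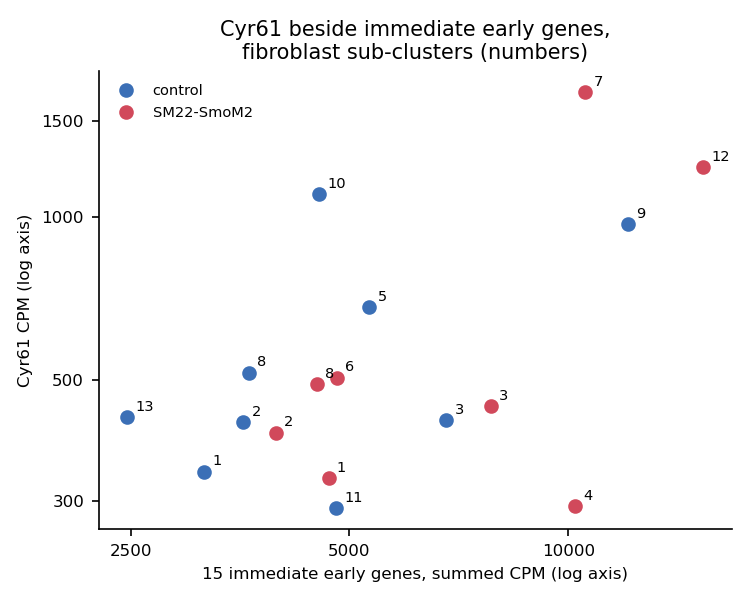
Cyr61 against the summed level of 15 immediate early genes (both CPM, log axes) in fibroblast sub-clusters of control and SM22-SmoM2, each point labelled by its sub-cluster. Sub-clusters 7, 9 and 12 were high in both, while 4 was high in the early genes alone, at 10211 CPM, and 10 in Cyr61 alone, at 1101 CPM.

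Of 10 genes that respond to TGF-beta, a known inducer of Ctgf, 3 were higher and 3 lower, with a median of 0.00. The matrix genes Tgfbi, Fn1 and Postn were lower at -2.79, -1.50 and -1.13, and Ltbp2 was higher at 2.09 from 31 and 117 UMIs. Col1a1 stood at -0.57, within 1.5-fold. Of 6 tested Wnt responsive genes 4 were higher and none lower, with a median of 0.83, among them the feedback inhibitor Nkd1 at 1.04 (20.4 and 42.0 CPM) and the transcription factor Tcf7 at 2.92 (1.91 and 14.5 CPM). Axin2 and Nkd2 were at 0.41 and 0.34. Wisp1, which shares its naming for Wnt with Wisp2, was in this setting at -0.03, and Wisp2 at -1.29.

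Of 13 receptors and partners of CCN proteins 3 were higher and 3 lower, with a median of -0.31. The integrin subunit Itga6 was higher at 2.25 (8.71 and 41.6 CPM), and so was Notch1, a receptor that NOV protein is known to bind, at 2.06 (15.7 and 65.4 CPM). The small proteoglycan Dcn was lower at -1.32 (7539 and 3017 CPM), while Bgn, of the same kind, and the integrin subunit Itgb1 were within 1.5-fold at -0.56 and -0.31.

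The genes most like each member were sought by the Pearson correlation of log2(CPM + 10) over 36 classes, each a cluster or sub-cluster of 1 library with at least 20 cells, among 8207 genes. The classes share 2 libraries and their depth, and the values are a description. Nov was most like Barx2 (0.88), Lrrn4cl (0.85) and Adgrg2 (0.83). Wisp1 was most like Creb3l1 (0.92), Mmp23 (0.91) and the collagen gene Col1a2 (0.90), and Wisp2 most like the protease gene Mmp3 (0.86), the secreted Wnt modulator Sfrp2 (0.85) and Osr1 (0.81). Cyr61 was most like Rnf11 (0.86), Nop58 (0.82) and Lzts2 (0.81), and Ctgf most like Msrb3 (0.75), Ppfibp1 (0.74) and Il1r1 (0.72). No member was among the 3 genes nearest to another. Between members the value was highest for Nov and Wisp2, at 0.60, followed by Wisp1 and Wisp2 at 0.49 and Nov and Wisp1 at 0.31, while Cyr61 and Ctgf stood at 0.28. Over the 17 fibroblast classes alone Ctgf and Wisp2 had 0.58, Nov and Wisp2 0.55, and Nov and Wisp1 0.00. Mmp3 leads sub-cluster 2, in which Wisp2 and Nov were both detected and where most of their SM22-SmoM2 UMIs stood.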

How the data were processed

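Sorted Tomato+ wound dermal cells of 1 control and 1 SM22-SmoM2 mouse pool were sequenced as 1 library each. The deposited values are raw UMI counts of every gene in every cell, which the authors made with bcl2fastq and Cell Ranger (10x Chromium 3′ v2 chemistry) against mm10, with versions and the strand counted not given in the sources used here. Fragmented 3′ reads tag 1 end of a transcript, so that counts do not grow with its length, and UMIs remove duplicates. The barcode list covers all 737280 barcodes of the kit and could not be tied to cells, so barcodes shared by the libraries could not be counted.

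Cells with at least 200 genes and at most 10% mitochondrial UMIs were kept. After scaling each cell to 10000 UMIs, 2000 variable genes gave 20 principal components for k-means (K = 20, and 15 for fibroblasts, 50 starts). Left out were 27 genes, the members, Wisp3, the 5 Hh markers and chosen dermal papilla and Wnt genes. Other genes of these kinds, such as the Hh-active II markers, were not left out. Clusters were named from marker lists. Clusters and sub-clusters with at least 2 markers of another lineage, and more of these than of their own, among their top 10 genes were set aside as mixed, a rule made after the clusters were seen. No doublets were removed, and Scrublet marked 5 and 11 barcodes. Since names were rebuilt here, shares may differ from those of other clusterings.

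Levels (CPM) are a gene's UMIs in a class of 1 library per 1000000 UMIs of the class. Intervals are exact Poisson for levels, exact conditional for ratios of levels and Clopper-Pearson for shares. For observed to product ratios, the Clopper-Pearson limits of the observed share were divided by the product taken as fixed. The counting error of the single shares is not in them. A count of 0 is given with the upper end of its exact interval, and in ratios it was replaced by 3 UMIs. The ratio of a gene was counted when it had at least 10 UMIs over both libraries. The depth, 2538 to 65167 UMIs per cell, limits what a single cell can show, and thinning was at random. With 1 library per group no test was made, and pooled animals give no replicate. The named genes were the members, Wisp3 once, from each list the 3 genes with the most UMIs and the 2 with the largest absolute ratio, for each member the 3 genes most like it, and for a sub-cluster its 3 leading genes. Ratios within sub-clusters and clusters, and Cyr61 beside the immediate early genes, were added after values were seen. The members and lists were chosen with earlier results of these data known. Scripts were tested on simulated data. Alternatives concerned filters, doublets, clustering, scaling, depth, sex and sub-cluster make-up. Python 3.11.15, numpy 2.4.6, scipy 1.17.1, scikit-learn 1.9.0, scanpy 1.11.5 and leidenalg 0.10.2 were used.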

Additional observations from a re-analysis of the deposited data

Results flagged for a closer look

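Several CCN genes differed in opposite directions between the libraries in different cell classes, with both counting intervals off 0. None of these differences was tested, because each group is 1 library. Values are log2 ratios of SM22-SmoM2 over control.

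Ctgf was higher in fibroblast sub-clusters 1, 2 and 3, at 1.54, 1.03 and 1.86, and lower in the cycling sub-cluster 8, at -2.27. Nov was at 0.37 (0.12 to 0.62) in sub-cluster 2 and at -5.67 in sub-cluster 8, and Wisp2 at 0.39 (0.19 to 0.60) in sub-cluster 2 and at -3.40 in sub-cluster 1. Of these classes, sub-cluster 3 had 35 control cells, and its control Ctgf level rested on 5 UMIs. In sub-clusters 1, 2, 3 and 8 the shares of cells with Ctgf after thinning had intervals that overlapped between the libraries.

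Cyr61 was slightly higher in fibroblasts, at 0.06, and lower in Schwann-like cells, at -0.10, and in immune-like cells, at -0.89. In both immune-like clusters its interval held 0. Inside the Schwann-like cells it was higher in cluster 2 (C4b, Ifit1 and Ifi47), at 0.38 (0.25 to 0.50), and in the cycling cluster 15, at 0.26 (0.06 to 0.45), and lower in cluster 3, at -0.49 (-0.61 to -0.37). Inside the endothelial-like cells it was at 0.37 (0.23 to 0.50) in cluster 7 (Csf3, Cxcl10 and Tiparp), at -0.44 (-0.65 to -0.22) in cluster 8 (Ccl21a, Lrg1 and Tagln) and at -0.46 (-0.78 to -0.15) in cluster 11 (Gja4, Igfbp3 and Rbp7). The ratios of the whole lineages, near 0, were sums of these. Wisp1 was at 1.94 in immune-like cells, from 4 and 8 UMIs, and at -0.67 in Schwann-like cells. Immune-like Wisp1 was at 3.99% of its fibroblast level in control and 15.6% in SM22-SmoM2. The 7 fibroblast markers were there at 2.59% to 7.46% and at 16.2% to 35.1%. The part of free RNA was not tested.

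The mixed cluster 14 (Notch3, Abcc9 and Gm13889), with 92 and 44 cells, a median of 14461 UMIs per cell and 3 muscle markers beside 1 endothelial marker among its leading genes, was left out of every lineage. The part of doublets in it was not tested. Ctgf stood there at 75.2 and 109 CPM, a ratio of 0.54 (0.08 to 0.99).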

How the results depend on the processing

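No paired analysis was possible because each group is 1 library, and for the same reason no replicate could be left out. Alternatives with mixed cells kept, without cluster 15, or for Ctgf outside fibroblasts were chosen after seeing the data. Under these alternatives Nov and Wisp2 stayed lower in fibroblasts, while ratios near 0 changed sign, and the sums over fewer sub-clusters given in the report put Wisp2 at 0.13 and 0.35. Of 80 alternative values of the fibroblast log2 ratios 58 stayed within counting error, and 22 moved. Thinning to 1500 UMIs gave Cyr61 0.23, Ctgf 0.95, Nov -3.03, Wisp1 -0.13 and Wisp2 -1.55. The mean of single-cell CPM gave Cyr61 0.27, Ctgf 0.38 and Wisp2 -1.58. Male cells alone gave Ctgf -0.04, Nov -3.57 and Wisp1 0.12. Female cells alone, of which SM22-SmoM2 had 48, gave Ctgf -2.80, Nov -4.35, Wisp1 -1.44 and Wisp2 -5.80. The mean of the ratios within sub-clusters gave Cyr61 -0.06, Nov -2.39 and Wisp2 -1.10. CPM without mitochondrial and ribosomal protein genes gave Cyr61 0.21 and Wisp1 0.12. Cyr61 was 0.13 with the median ratio over genes set to 0 and 0.11 with K of 30 and 20. Outside fibroblasts, Ctgf moved to 0.13 in Schwann-like cells without cluster 15 and to 0.67 in muscle-like cells with Scrublet doublets removed. After that removal, with classes rebuilt, Cyr61 moved to 563 CPM in SM22-SmoM2 fibroblasts and to 513 and 560.3 CPM in endothelial-like cells. In SM22-SmoM2 muscle-like cells Cyr61 moved to 920.1 CPM and Ctgf to 98.5 CPM. The cause was not tested. Leiden clustering gave 7.02 CPM of Ctgf in control Schwann-like cells and higher peaks over fibroblast sub-clusters: Nov 880.1 and 205, Wisp2 869.6 and 261 CPM in control and SM22-SmoM2, Ctgf 283 in control and Cyr61 2050 in SM22-SmoM2.

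Co-detection moved in 18 of 75 alternatives. With 2 UMIs needed for detection, control ratios were 1.98 for Cyr61 and Ctgf, 1.44 for Cyr61 and Nov, 0.78 for Cyr61 and Wisp1, 0.00 for Ctgf and Wisp1, 6.23 for Ctgf and Wisp2, 0.29 for Nov and Wisp1, 1.04 for Nov and Wisp2 and 0.45 for Wisp1 and Wisp2. In SM22-SmoM2 they were 0.24 for Cyr61 and Nov, 0.78 for Cyr61 and Wisp1 and 2.44 for Ctgf and Wisp1. Products within sub-clusters gave 1.05 for Cyr61 and Nov, 1.37 for Ctgf and Nov and 0.82 for Nov and Wisp1 in control, and 2.15 for Nov and Wisp2 in SM22-SmoM2. Thinning to 1500 UMIs gave 3.64 for Ctgf and Wisp2 and 0.36 for Nov and Wisp1 in control, and Nov and Wisp1 stood at 0.89 without thinning. At least 50 UMIs per gene gave 8.45% lower and 2.98% higher in endothelial-like, 7.69% and 4.47% in Schwann-like and 11.8% and 4.54% in muscle-like cells. Asking only 1 UMI in each library gave 12.3%, 14.1% and 17.4% higher.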
